A study of Mus musculus with 48 samples.

Results

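The comparison described here covers the second hour of messenger RNA decay in mouse fibroblasts that lack tristetraprolin, and asks which transcripts still fell at that stage. The 5 arrays titled as KO at 120 min of actinomycin D were set against the 4 titled as KO at 60 min, 9 of the 48 arrays in all, and every probe set other than the array controls was tested. The KO cells (Zfp36 -/-) and the WT cells (Zfp36 +/+) were fibroblasts grown from littermate embryos at E14.5, on a mixed 129/B6 background. Both were held in 0.5% serum for 16 h, given 10% serum for 90 min, and then given actinomycin D for 0, 30, 60, 90 or 120 min. The labels give different doses of actinomycin D, and which of them was used is not settled here. Each array carried RNA from combined dishes of 1 experiment, and the replicate number names the experiment, run on a separate day with both genotypes side by side. The KO group at 60 min lacks replicate 4 and the KO group at 0 min lacks replicate 5. From their wording the labels describe 1 line per genotype, so replicates are repeated experiments on that line, and a difference between KO and WT cannot be told apart from a difference between 2 lines.

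Tristetraprolin (TTP), the product of Zfp36, is a zinc finger protein that binds AU-rich elements in the 3′ untranslated regions of messenger RNAs and brings in the deadenylase complex that starts their decay. The transcripts it binds include short-lived ones for cytokines, growth regulators and transcription factors, many of which serum switches on within minutes. Actinomycin D blocks transcription, so that the level of a transcript afterwards follows its decay. In cells without TTP the other decay routes remain, among them the related proteins Zfp36l1 and Zfp36l2, further AU-rich element binding proteins and microRNAs.

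Values are log2 signals as deposited, on which a drop of 1 is a halving of the signal. Fewer cells with a transcript and less of it per cell cannot be told apart in them. The array medians of the 9 KO arrays lay between 8.475 and 8.505, against 8.471 to 8.56 over all 48. Experiments 4 and 5 stood apart from 1 to 3: deviations from the group means, compared between arrays of different groups, correlated at a mean of 0.32 between experiments 4 and 5, at 0.094 to 0.12 among experiments 1 to 3, and at -0.31 to -0.19 across. Signals near 8 form the floor of the measurement: each array had its 5th percentile at 8.015 to 8.131, so a transcript that drops to that level shows less than its full fall. Of 12 fibroblast markers, 9 averaged above 10 at 120 and at 60 min in KO, among them Col1a1, Col1a2 and Vim, while Thy1 and Fap lay near the floor and Lum was low. The epithelial, endothelial, blood and muscle markers averaged between 8.13 and 8.64 in KO at 120 min and between 8.18 and 8.62 at 60 min, and none of these marker genes passed the test. Of the neural markers, Map2 and Tubb3 were well above the floor and did not pass the test either. The probe set for Zfp36 gave 9.51 ± 0.16 in KO and 9.86 ± 0.16 in WT (SD) before actinomycin D, with n = 4 and n = 5 arrays. KO was thus lower by a small amount, -0.35 ± 0.091 (SE, adjusted p = 0.00418) on the log2 scale, and both genotypes lay well above the floor. The labels do not say whether the probe set lies outside the disrupted region, so it is no check of the genotype.

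Between 60 and 120 min of actinomycin D, 511 of 45037 probe sets fell in KO fibroblasts (1.13% of those tested) and 78 rose (0.173%), at an adjusted p below 0.05 in limma. With 1 probe set per gene, 312 of 18193 genes fell (1.71%) and 35 rose (0.192%). The falls spanned a log2 change of -1.68 to -0.11 with a median of -0.36, which is a signal 1.29-fold lower at 120 min, against a median of 0.0027 over all genes. The change reached 1 log2 unit in 11 genes and 0.5 in 93. In 300 of the 312 genes every array at 120 min lay below every array at 60 min, an arrangement that 765 of all 18193 genes showed (4.2%). The arrays at 90 min, which enter the test only through the shared estimate of the spread, had a mean between those at 60 and 120 min in 311 of the 312. Choosing genes for a gap between these 2 means favours that order, and its share over all genes is not given here. The median change was -0.23 between 60 and 90 min and -0.13 between 90 and 120 min, and since the genes were chosen on their values at 60 and 120 min this split is a description only.

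Transcripts that fell late were mostly well-expressed ones. By the level in KO before actinomycin D, on arrays outside the comparison, 3 of 6855 genes below 8.5 fell, 29 of 5089 between 8.5 and 9, 148 of 4084 between 9 and 10, 99 of 1602 between 10 and 11, and 33 of 563 above 11. These are 0.0438%, 0.57%, 3.62%, 6.18% and 5.86% of each class. How far the floor of the signal sets the share among dim genes was not tested. All 312 genes changed in the same direction when any of the 5 experiments was left out and within experiments 1 to 3 and 4 to 5 taken alone, fits that reuse arrays on which the genes were chosen. In experiments 4 and 5 KO at 60 min is 1 array, so that direction rests on it. The call itself was kept by 219, 233, 220, 235 and 216 of them without replicates 1, 2, 3, 4 and 5, and by 172 in every one of these fits. Those 172 had a median change of -0.49.

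Regulators of transcription and growth were among the largest falls. Btg1, a member of the Btg/Tob antiproliferative family whose proteins bind the deadenylase complex, had signals of 9.57, 9.76, 9.59, 9.80 and 9.76 in KO at 120 min, against 11.34, 11.32, 11.37 and 11.47 at 60 min. The groups lay apart without overlap, and the arrays of each group lay close together. The log2 change was -1.68 ± 0.078 (SE, adjusted p = 1.08e-20), a signal 3.2-fold lower, and at a steady rate that is a halving every 35.7 min. Nr4a1, an orphan nuclear receptor of the immediate-early class, had 9.30, 9.19, 9.39, 9.44 and 9.29 at 120 min, against 11.18, 10.70, 10.98 and 10.66 at 60 min. Its change was -1.56 ± 0.16 (SE, adjusted p = 3.35e-09). Cited2, which limits the hypoxia-inducible factors by competing for their coactivators, had 8.92, 8.92, 8.97, 9.15 and 9.09 at 120 min, against 10.20, 10.08, 10.17 and 10.39 at 60 min, a change of -1.20 ± 0.092 (SE, adjusted p = 4.35e-13). In neither gene did the arrays of the 2 times overlap.

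Further regulators of transcription stood among the 24 largest falls. Cebpb, a basic leucine zipper factor of the acute response, changed by -1.15 ± 0.13 (SE, adjusted p = 3.33e-08), with 9.75, 9.54, 9.66, 9.96 and 9.70 at 120 min, against 10.80, 10.77, 11.01 and 10.89 at 60 min. The AP-1 subunits Fosl1 and Junb changed by -1.04 ± 0.085 (SE, adjusted p = 2.52e-12) and -0.96 ± 0.16 (SE, adjusted p = 0.000121). Fosl1 had 9.27, 9.24, 9.19, 9.33 and 9.18 at 120 min, against 10.35, 10.32, 10.26 and 10.18 at 60 min, while Junb at 60 min held 10.26, 10.27, 10.30 and 9.80, of which replicate 5 was the lowest. The Krüppel-like factors Klf9 and Klf6 changed by -0.96 and -0.92 (adjusted p = 8.19e-06 and 1.65e-09). As in the genes before, no array at 120 min reached any at 60 min. Foxo3, a forkhead factor held in check by growth factor signalling, changed by -0.88, Xbp1, the factor of the unfolded protein response, by -0.89, and the nuclear receptor coactivator Pnrc1 by -1.18. Id2, which blocks basic helix-loop-helix factors, had 9.45, 9.54, 9.43, 9.73 and 9.79 at 120 min, against 10.36, 10.39, 10.36 and 10.75 at 60 min, a change of -0.88 ± 0.12 (SE, adjusted p = 1.45e-06).

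A further set within these 24 acts in signalling, adhesion and transport. Ccn1, a secreted matricellular protein that serum induces, had 9.04, 8.96, 8.96, 8.86 and 8.72 at 120 min, against 10.88, 10.39, 10.41 and 9.64 at 60 min, and changed by -1.42 ± 0.18 (SE, adjusted p = 2.68e-07). The arrays at 60 min were widely spread, and even the lowest of them lay above all arrays at 120 min. Rhob, a small GTPase of the cytoskeleton, changed by -1.12 ± 0.11 (SE, adjusted p = 8.45e-10), and the Cdc42 effector Cdc42ep3 by -1.04 ± 0.10 (SE, adjusted p = 9.65e-10). The NF-kappaB regulators Nfkbiz and Nfkbia, both feedback genes of that pathway, changed by -1.03 ± 0.090 (SE, adjusted p = 1.37e-11) and -0.90 ± 0.11 (SE, adjusted p = 2.32e-07). In these 4 genes too the times did not overlap. Errfi1, which inhibits the EGF receptor, was still bright at 11.08 ± 0.18 at 120 min, against 11.96 ± 0.090 at 60 min (SD, n = 5 and n = 4), a change of -0.88 ± 0.087 (SE, adjusted p = 7.47e-10). The serum-induced kinase Sgk1 changed by -0.87 and the pleckstrin homology domain protein Phlda1 by -1.02. The others were the adaptor Bcar1 (-0.86), the amino acid transporter Slc38a2 (-0.95), the Dishevelled-binding Wnt regulator Dact1 (-0.94) and Zfand5 (-0.83), a zinc finger protein that acts on the proteasome.

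In all 24 of these genes the groups did not overlap, and the mean at 90 min lay between the others. The choice of the largest falls favours both. All 24 also passed without each replicate in turn, with the replicate as a block, within experiments 1 to 3, and after subtraction of the background. Their signals were 1.78-fold to 3.20-fold lower at 120 min, which at a steady rate is a halving every 35.7 to 72.4 min. These folds are those of the deposited signal, and where background is part of it they understate the change. For Btg1 the fold was 4.23 and for Ccn1 4.66 after each array's 5th percentile was subtracted. Of the 24, 18 have several probe sets on the array, and in 8 of these every probe set fell. Btg1 had 3 probe sets, of which 2 fell, and the others changed by -1.39 and -0.09, while the 5 probe sets of Klf6 all fell. Over all 312 genes, 199 have several probe sets, and every probe set lay below 0 in 141 and fell in 39.

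**Figure D1:**
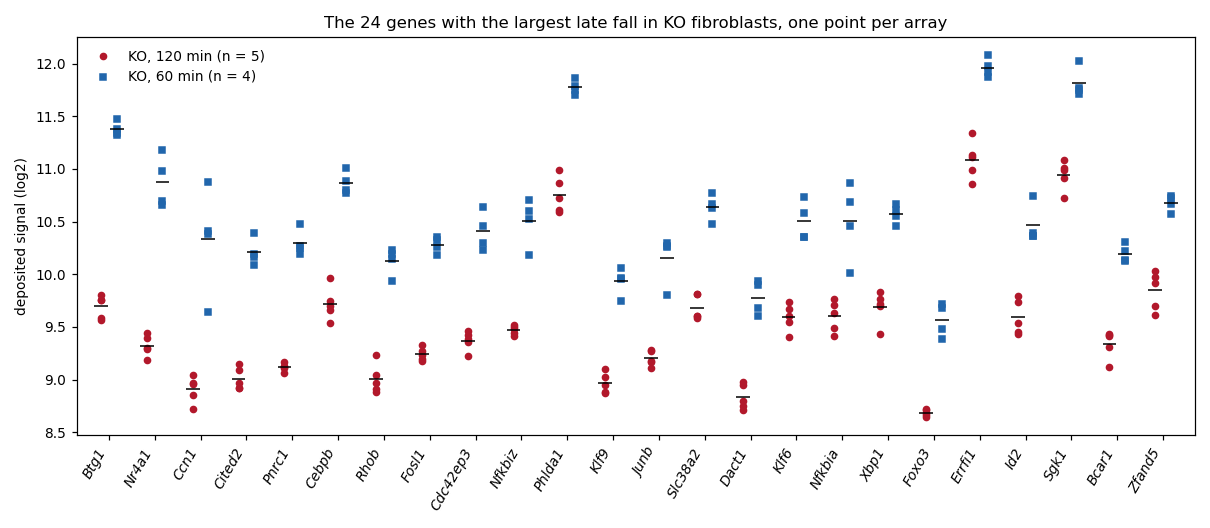
Deposited log2 signal (vertical axis) of the 24 genes with the largest fall, one point per array, with KO at 120 min as circles (n = 5), KO at 60 min as squares (n = 4) and black lines for the means. In all 24 genes the circles lie below the squares, and Btg1 has the widest gap (log2 change -1.68).

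Described by function, the immediate-early transcription factors, the list with the most measured members, held the most falls, 12 of 38, with a list median of -0.26. Over all genes 1.71% fell, and 3.62% to 6.18% in the classes at 9 or above before actinomycin D. Lists and members were chosen with earlier results of these data known, so the list counts here and below are a description only. None of the 38 rose. Beyond the AP-1, Krüppel-like, C/EBP and Nr4a members above, Klf4 changed by -0.67, Cebpd by -0.59, Csrnp1 by -0.48, Klf2 by -0.47 and Jund by -0.39. Klf4 illustrates how the experiments differed in level, with 10.56, 10.42, 10.36, 11.05 and 10.75 at 120 min, against 11.16, 11.13, 11.22 and 11.69 at 60 min, and replicates 4 and 5 were the highest at 120 min and replicate 5 at 60 min. Of the 12 calls, 8 held whichever replicate was left out. The highest adjusted p of the other 4 was 0.232 without replicate 5 for Klf4, 0.196 without replicate 3 for Cebpd, 0.161 without replicate 2 for Jund and 0.0899 without replicate 3 for Klf2.

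Feedback regulators of MAP kinase and receptor signalling followed, with 9 of 27 members that fell and a median of -0.19. Spry2, an inhibitor of receptor tyrosine kinase signalling, had 9.04, 9.05, 8.94, 9.16 and 9.17 at 120 min, against 9.87, 9.77, 9.87 and 9.95 at 60 min, a change of -0.79 ± 0.10 (SE, adjusted p = 1.75e-07). Dusp5, a nuclear phosphatase of ERK, had 8.75, 8.72, 8.66, 8.69 and 8.62 at 120 min, against 9.64, 9.33, 9.31 and 9.28 at 60 min, a change of -0.70 ± 0.11 (SE, adjusted p = 3.4e-05). In both genes the groups lay apart, and Dusp5 ended close to the floor. Smaller falls were measured for the small GTPase Rnd3 (-0.59), the cytokine signalling suppressor Socs5 (-0.52), the kinases Pim1 (-0.51) and Pim3 (-0.50) and the phosphatases Dusp14 (-0.45) and Dusp1 (-0.39). The count among these 9 was 5, 6, 5, 8 and 7 without replicates 1, 2, 3, 4 and 5, and the highest adjusted p was 0.094 without replicate 1 for Rnd3, 0.151 without replicate 3 for Pim1, 0.0588 without replicate 3 for Pim3, 0.199 without replicate 1 for Dusp14 and 0.329 without replicate 5 for Dusp1.

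BMP and TGF-beta signalling had 8 members of 27 that fell, although the list median was only -0.08. The transcriptional repressor Skil, which holds back Smad proteins, had 9.20, 9.37, 9.16, 9.44 and 9.44 at 120 min, against 9.94, 10.15, 10.02 and 10.21 at 60 min, a change of -0.76 ± 0.11 (SE, adjusted p = 3.81e-06). Smad1, a transducer of BMP signals, had 10.35, 10.37, 10.11, 10.19 and 10.15 at 120 min, against 10.84, 10.97, 11.03 and 10.80 at 60 min, a change of -0.68 ± 0.094 (SE, adjusted p = 2.33e-06). The groups of each did not overlap. The homeobox corepressors Tgif1 and Tgif2 changed by -0.57 and -0.42, the receptor Tgfbr2 by -0.30, the inhibitory Smad6 by -0.22 and Smad2 by -0.18, and Id2, above, also belongs to the list. Calls were lost without 1 replicate for Tgif1 (adjusted p = 0.131 without replicate 1), Tgfbr2 (0.132 without replicate 3), Smad6 (0.297 without replicate 2) and Smad2 (0.408 without replicate 5), and 4 of the 8 held in every such fit.

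Btg1 was not the only antiproliferative gene to fall: 4 of the 7 measured Btg, Tob and Gadd45 genes did, with a list median of -0.45. Btg2 changed by -0.70, Tob1 by -0.55 and Tob2 by -0.45. Tob1 had 9.62, 9.49, 9.33, 9.61 and 9.49 at 120 min, against 10.32, 9.85, 10.04 and 10.02 at 60 min, with no overlap. The calls of Btg1 and Tob1 held without each replicate, and the highest adjusted p was 0.231 without replicate 3 for Btg2 and 0.213 without replicate 5 for Tob2. Of 19 survival genes 3 fell. Mcl1, a short-lived antiapoptotic relative of Bcl2, had 10.25, 10.27, 9.98, 9.98 and 9.96 at 120 min, against 10.99, 10.98, 10.73 and 10.73 at 60 min, and changed by -0.77 ± 0.10 (SE, adjusted p = 1.34e-06). Its groups lay apart and 5 of its 6 probe sets fell. The smaller changes of Bcl2l1 (-0.25) and Bcl10 (-0.24) reached an adjusted p of 0.258 without replicate 3 and 0.195 without replicate 3.

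Regulators of the Notch, Wnt and Hedgehog pathways had 5 members of 20 that fell, with a median of -0.06. Besides Dact1 they were the Wnt receptors Fzd2 (-0.46) and Fzd7 (-0.28), the scaffold Axin1 (-0.45) and the transcription factor Gli3 (-0.35), and the highest adjusted p was 0.0886 without replicate 5 for Fzd7. Of 18 hypoxia and stress factors 5 fell, led by Cited2 and Xbp1, followed by the growth factor Vegfa (-0.60), the glutathione-degrading enzyme Chac1 (-0.59) and the coregulator Sertad1 (-0.23). Chac1 ended at the floor in KO, with 8.02, 8.06, 8.10, 8.21 and 8.17 at 120 min, against 8.70, 8.54, 8.69 and 8.91 at 60 min, so its late change may understate the fall. The ubiquitin ligase list had 4 of 27, with Kbtbd2 (-0.64), Spsb1 (-0.48), Siah2 (-0.39) and Btbd3 (-0.21), where the highest adjusted p was 0.166 without replicate 5 for Spsb1 and 0.184 without replicate 5 for Btbd3. NF-kappaB genes had 3 of 16, with the subunit Rel (-0.23, adjusted p up to 0.248 without replicate 2) beside Nfkbiz and Nfkbia, and p53 targets 3 of 22, namely Phlda1, Btg2 and the kinase Plk2. Relatives outside the lists fell too, among them Bcl3 (-0.27), Fzd5 (-0.31) and Dusp16 (-0.38).

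Cyclins and their regulators had 3 of 23 members that fell, with Ccnl1 (-0.52), the inhibitory kinase Wee1 (-0.30) and E2f3 (-0.29, adjusted p up to 0.187 without replicate 1). Cytokines and growth factors had 2 of 36, Vegfa and the fibroblast mitogen Fgf7 (-0.39 ± 0.072 SE, adjusted p = 0.000402). Single members fell in the lists of serum response and matricellular genes (Ccn1, of 19), chromatin regulators (Jmjd1c, -0.46, of 25), Myc and Max partners (Mnt, -0.22, of 12) and AU-rich element binding proteins (Zfp36l2, of 16), and in the cartilage markers (Sox9, -0.56, of 3). Of all genes 1.71% fell, and 3.62% to 6.18% of those at 9 or above before actinomycin D. Neither 2 of 36 nor a single member sets a list apart from those shares. The calls of Jmjd1c, Mnt and Sox9 were lost at an adjusted p of 0.0566 without replicate 5, 0.244 without replicate 3 and 0.0731 without replicate 5. Connective tissue growth factor Ccn2 had 11.26, 11.45, 10.86, 10.64 and 10.17 at 120 min, against 11.86, 11.94, 11.51 and 11.08 at 60 min, and did not pass the test (-0.72 ± 0.20 SE, adjusted p = 0.0581). Its groups overlapped, and replicates 4 and 5 were the lowest at 120 min, while each of the 4 experiments with both times had the lower signal at 120 min. With the replicate as a block Ccn2 passed (-0.66, adjusted p = 0.00126).

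No member fell among 17 circadian clock genes, 28 mRNA decay factors, 19 cytosolic ribosomal proteins, 11 glycolytic enzymes, 19 oxidative phosphorylation subunits, 19 collagens and matrix proteins, 19 DNA replication and mitosis genes and 10 noncoding RNAs in limma. With 1.71% of all genes falling, a count of 0 in lists of this size is near the share of all genes. Their list medians lay between -0.04 and 0.13 in KO. The lists hold chosen members only, and related genes outside them fell. Examples are Smg8 (-0.34), Cnot11 (-0.22) and Pelo (-0.19) for RNA decay, and Cdt1 (-0.66) and Cenpc1 (-0.21) for replication and mitosis. No member of any list rose. Outside the lists the oxidative phosphorylation genes Atp5l (0.20), Ndufb7 (0.18) and Ndufb1 (0.17) rose. Some genes stand in more than 1 list (Vegfa, Pim1, Plk2, Dusp1 and Zfp36l2 among them), so the list counts do not add up. With the replicate as a block, 14 MAP kinase and receptor feedback genes, 7 ubiquitin ligases, 5 cyclins and regulators, 4 cytokines and growth factors, 4 chromatin regulators, 3 AU-rich element binding proteins, 2 members each of the serum response, Myc and TTP family lists and 1 circadian gene fell, and 1 or 2 members rose in 6 lists, with 2 mRNA decay factors and 2 oxidative phosphorylation subunits the most.

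**Figure D2:**
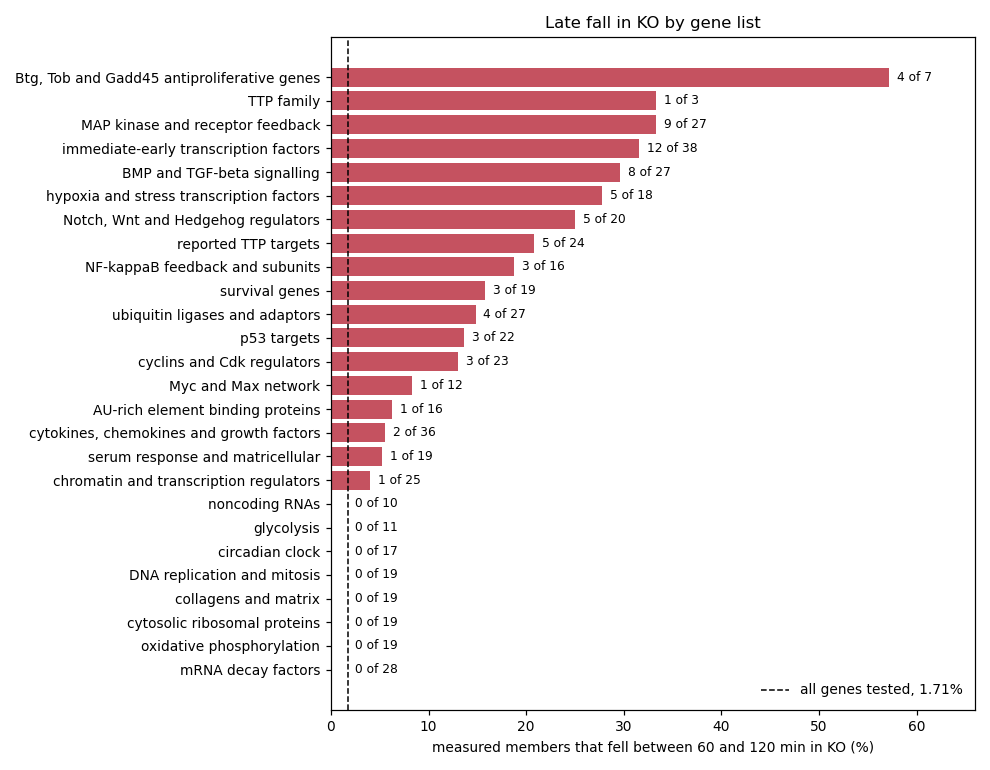
Share of the measured members of each gene list, cell type markers left out, that fell between 60 and 120 min in KO (bars, percent), with the number of members beside each bar and the share of all genes tested as a dashed line (1.71%). The bars run from 4 of 7 for the Btg, Tob and Gadd45 genes to 0 for 8 of these lists, among them the ribosomal proteins. The dashed line covers genes of every level and the lists were not matched on level. Of genes at 9 or above before actinomycin D, 3.62% to 6.18% fell, depending on the level class.

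Transcripts that the literature reports as TTP targets were among the late falls in cells without TTP. Of 24 such genes 5 fell, against 1.71% of all genes, with a list median of -0.04. In WT 5 fell over the same hour, against 4.83% of all genes, with a median of -0.06. Ier3 entered the list from work on these samples, so its direction there is no independent evidence. Plk2, a serum-induced polo-like kinase, had 9.87, 9.80, 9.45, 9.93 and 9.69 at 120 min, against 10.65, 10.28, 10.23 and 10.23 at 60 min, a change of -0.60 ± 0.12 (SE, adjusted p = 0.00213). Vegfa had 10.06, 10.11, 10.12, 10.45 and 10.20 at 120 min, against 10.96, 10.86, 10.48 and 10.85 at 60 min, a change of -0.60 ± 0.090 (SE, adjusted p = 1.2e-05). The groups of both lay apart, and of the 5 Vegfa alone passed whichever replicate was left out. The others reached an adjusted p of 0.0697 without replicate 1 for Plk2, 0.151 without replicate 3 for Pim1, 0.297 without replicate 1 for Ier3 and 0.329 without replicate 5 for Dusp1. Myc changed by -0.32 and did not pass (adjusted p = 0.0686), with a mean of 8.66 at 120 min, against 8.98 at 60 min. Under the replicate block it passed (adjusted p = 0.00524), as it did after background subtraction (0.00278).

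Ier3, an immediate-early regulator of cell survival, stayed bright in KO. It had 11.54, 11.52, 11.49, 11.72 and 11.66 at 120 min, against 12.10, 11.99, 12.04 and 12.09 at 60 min, and changed by -0.46 ± 0.12 (SE, adjusted p = 0.035). In WT it had 9.82, 9.94, 10.21, 9.62 and 10.08 at 120 min, against 10.89, 10.79, 10.96, 10.08 and 10.60 at 60 min, a change of -0.73 ± 0.11 (SE, adjusted p = 1.58e-05). The KO call was lost after background subtraction (adjusted p = 0.111). KO arrays at 120 min were thus above all WT arrays at 60 min, while the changes over this hour, KO minus WT, differed by 0.26 ± 0.17 (SE, adjusted p = 0.538) and did not pass. In KO at a steady rate the late fall of Ier3 is a halving every 129 min. The TTP relatives differed in level and change. Zfp36l1 had 11.42, 11.41, 11.36, 11.63 and 11.68 at 120 min, against 11.60, 11.72, 11.73 and 11.97 at 60 min, which overlapped, and changed by -0.25 ± 0.086 (SE, adjusted p = 0.175), or an adjusted p of 0.00784 with the replicate as a block. Zfp36l2 had 11.08, 10.70, 10.67, 10.44 and 10.54 at 120 min, against 11.41, 11.23, 11.35 and 10.98 at 60 min, and changed by -0.56 ± 0.14 (SE, adjusted p = 0.0336), with an adjusted p of 0.222 without replicate 3, and its groups overlapped as well. Zfp36 itself had 8.05, 8.14, 8.12, 8.15 and 8.11 at 120 min, against 8.36, 8.39, 8.21 and 8.29 at 60 min, close to the floor of the signal, and changed by -0.20 ± 0.091 (SE, adjusted p = 0.422). Its groups did not overlap, and it passed in a fit to the 2 KO groups alone (adjusted p = 0.00713) and after background subtraction, where the change was -1.49 (adjusted p = 0.00078). In that subtraction remainders under 16 were set to 16, so for a signal this close to the floor the size of the change depends on the cut-off.

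The early and late intervals were compared on arrays they do not share, as the change per hour from 60 to 120 min minus that from 0 to 30 min. In the first 30 min 117 genes fell in KO (0.643%), and 35 of them fell late as well, which is 29.9% of the early and 11.2% of the late falls. The 82 that fell early and not late were at 8.67 at 60 min in the median, against 9.39 for the 35, and 65 of the 82 but 9 of the 35 had a mean under 9 by then. The arrays at 60 min are also part of the late test that divided these genes. That favours a higher level at 60 min in the 35, so the gap is a description only. In the first 30 min the 312 late falls had a median change of -0.11, against -0.0087 over all genes, and 88.1% of them lay below 0, against 56.3% of all genes. These shares were not matched on level: before actinomycin D the median signal in KO was 9.76 for the 312 and 8.66 for all genes. The late rate was slower than the early one in 53 genes (0.291%) and faster in 7 (0.0385%). All 7 that were faster late belong to the 312, and 2 of the slower ones do. Over all probe sets 197 were slower and 15 faster, and 316 and 48 with the replicate as a block.

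Btg1 kept most of its signal for an hour and then dropped, with means of 11.72, 11.60, 11.38, 10.48 and 9.70 in KO at 0, 30, 60, 90 and 120 min. Its log2 rate was -1.68 per h late, against -0.24 early, and the rates differed by -1.44 ± 0.17 (SE, adjusted p = 2.79e-07). Foxo3 followed the same course, with means of 9.85, 9.89, 9.57, 8.99 and 8.68, and rates that differed by -0.96 ± 0.21 (SE, adjusted p = 0.00977). Xbp1 had means of 10.84, 10.78, 10.57, 10.11 and 9.69, and its rates differed by -0.77 ± 0.18 (SE, adjusted p = 0.0252). All 3 were nearly level over the first 30 min and fell afterwards. The others were Arf6, a small GTPase of membrane traffic (-0.54 ± 0.13 SE, adjusted p = 0.025), the BMP coreceptor Rgmb (-0.73 ± 0.13 SE, adjusted p = 0.000303), Snapc2, a subunit of the small nuclear RNA activating complex (-0.57 ± 0.13 SE, adjusted p = 0.0174), and Ppp1r13b, a partner of p53 (-0.46 ± 0.10 SE, adjusted p = 0.00849). The differences of Btg1 and Rgmb passed without each replicate. Those of Foxo3, Xbp1, Snapc2, Arf6 and Ppp1r13b reached an adjusted p of 0.512 without replicate 3, 0.248 without replicate 1, 0.377 without replicate 2, 0.194 without replicate 4 and 0.106 without replicate 3. The late fall of Ppp1r13b itself (-0.17) reached 0.178 without replicate 5.

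The opposite course was that of Dusp1 and Sertad1. Dusp1, a phosphatase that switches off MAP kinases, had means of 11.16, 10.30, 9.02, 8.70 and 8.63 in KO at 0, 30, 60, 90 and 120 min, and its rates differed by 1.33 ± 0.22 (SE, adjusted p = 0.000185). Sertad1 had means of 10.20, 9.59, 8.91, 8.73 and 8.68, and its rates differed by 0.98 ± 0.13 (SE, adjusted p = 4.29e-06). Both had lost most of their signal by 60 min, and their late arrays were close to the floor, where a fall appears smaller. Their late changes of -0.39 and -0.23 lost the call at an adjusted p of 0.329 without replicate 5 and 0.2 without replicate 3. With the background subtracted the difference of rates for Dusp1 did not pass (adjusted p = 0.537).

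**Figure D3:**
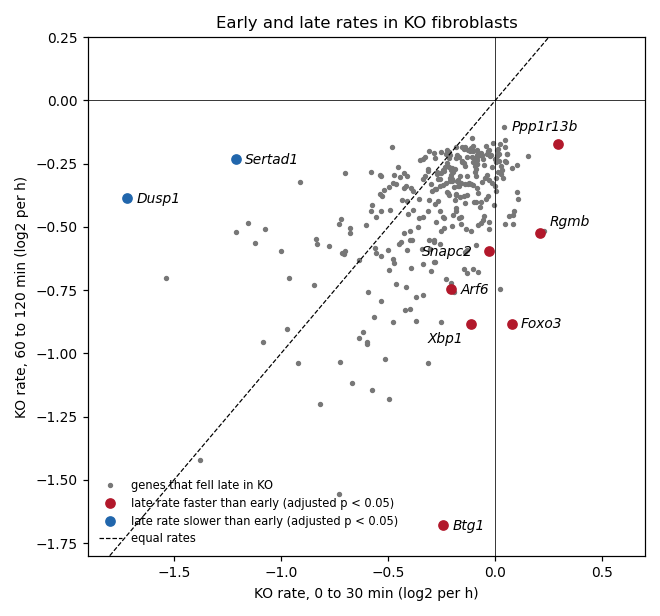
Log2 change per hour in KO from 60 to 120 min (vertical axis) against that from 0 to 30 min (horizontal axis) for the 312 genes that fell late, with equal rates as a dashed line. The 7 genes with a faster late rate, Btg1 lowest, are red and lie under the line, and Dusp1 and Sertad1, with a slower late rate, are blue and lie far to the left.

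Most late falls in KO were shared with WT. Over the same hour 879 genes fell in WT (4.83%), and 272 of these also fell in KO, which is 87.2% of the KO and 30.9% of the WT falls. The KO and WT arrays are different, but come from the same experiments. The 312 genes had a median change of -0.36 in KO and -0.40 in WT, and 309 of them lay below 0 in WT. Conversely the 879 WT falls had a median of -0.17 in KO, against -0.30 in WT, and 846 lay below 0 in KO. Each set was chosen on the values of 1 genotype, so its median there is a description. WT had 5 arrays at 60 min and KO 4, and without replicate 4, which equalises them, 396 probe sets fell in KO and 1023 in WT. The change in KO lay above that in WT in 184 of the 312 genes and below it in 128. The 40 genes that fell in KO without a call in WT had a median change of -0.29 in KO and -0.11 in WT, and 37 of them lay below 0 in WT, and 3 of them differed between the genotypes by the test of the difference itself.

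The test of the difference between genotypes (KO change minus WT change) called 1 gene higher in KO (0.0055%) and 3 lower (0.0165%) in limma. Over all probe sets the counts were 1 and 5, and 20 and 10 with the replicate as a block. Of 18193 genes, 704 and 1371 had an unadjusted p below 0.05 in these directions. These are not calls, and chance alone gives many at that threshold. The median change over all genes was 0.0027 in KO and 0.025 in WT, and how far that sets the split between directions was not tested. Dact1 had 8.95, 8.98, 8.71, 8.80 and 8.75 in KO at 120 min, against 9.89, 9.94, 9.60 and 9.68 at 60 min. In WT it had 8.26, 8.22, 8.41, 8.12 and 8.20 at 120 min, against 8.42, 8.47, 8.35, 8.21 and 8.28 at 60 min, near the floor throughout. The changes differed by -0.84 ± 0.10 (SE, adjusted p = 1.6e-05), which passed whichever replicate was left out (adjusted p up to 0.00216 without replicate 1) but not after background subtraction (0.571). Irx3, a homeobox factor, was the reverse, with 8.29, 8.20, 8.22, 8.23 and 8.17 in KO at 120 min, against 8.30, 8.26, 8.28 and 8.24 at 60 min. In WT it had 8.56, 8.71, 8.62, 8.53 and 8.59 at 120 min, against 9.62, 9.69, 9.59, 9.18 and 8.99 at 60 min, and the changes differed by 0.76 ± 0.12 (SE, adjusted p = 0.00239), up to 0.252 without replicate 3. In both genes 1 genotype stood near the floor at both times.

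The transcriptional repressor Hic1 changed by -0.37 in KO and by -0.045 in WT, a difference of -0.33 ± 0.064 (SE, adjusted p = 0.0441), and the tyrosine kinase Tec by -0.20 in KO and 0.053 in WT, a difference of -0.25 ± 0.045 (SE, adjusted p = 0.0114). Hic1 averaged 8.31 in WT at 120 min, against 8.35 at 60 min, and Tec 8.42, against 8.36, all close to the floor. Without 1 replicate the adjusted p reached 0.446 without replicate 4 for Hic1 and 0.31 without replicate 1 for Tec. Among the strong falls, Nr4a1 changed by -1.56 in KO and by -0.76 in WT, with signals in WT of 8.91, 8.98, 8.79, 8.69 and 8.75 at 120 min, against 9.77, 9.88, 10.01, 9.15 and 9.12 at 60 min. Smad1 changed by -0.68 in KO and by -1.20 in WT. Neither difference passed the test (adjusted p = 0.41 and 0.293).

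**Figure D4:**
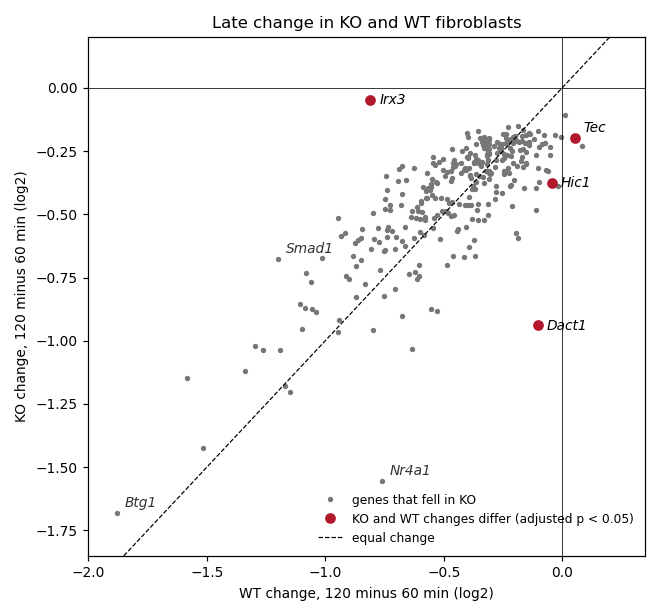
Log2 change from 60 to 120 min in KO (vertical axis) against that in WT (horizontal axis) for the 312 genes that fell in KO (grey), with equal change as a dashed line. The 4 genes whose changes differed between the genotypes are red, and of these Irx3 is not among the 312. Most points follow the line, while Dact1 lies far below it and Irx3 above it.

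**Figure D5:**
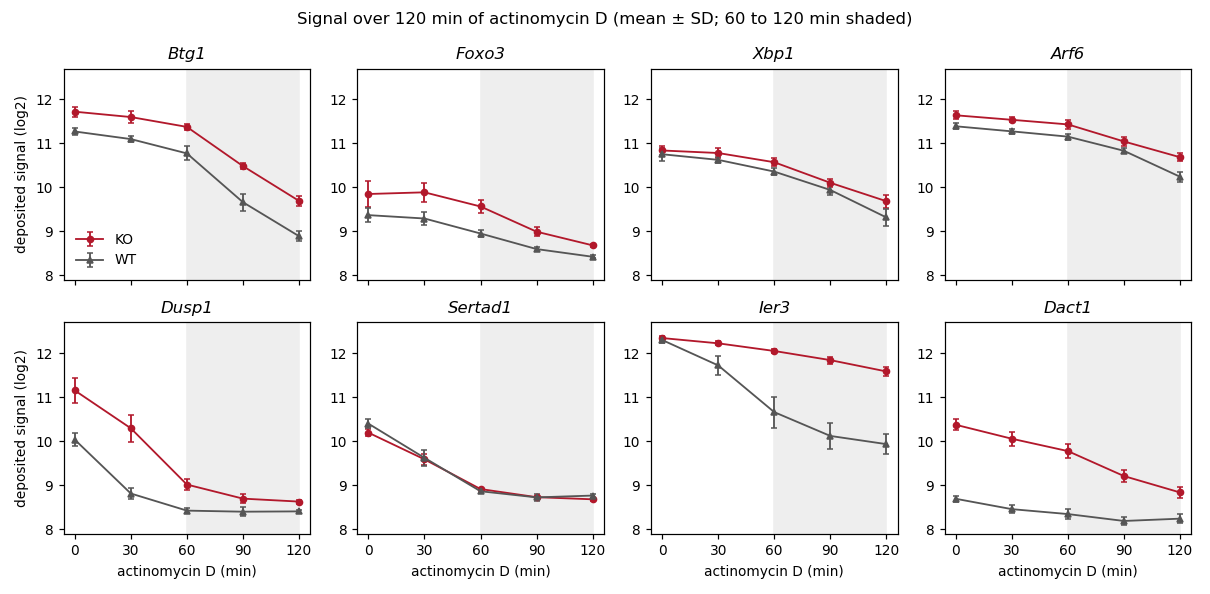
Mean log2 signal ± SD of 8 genes over 0 to 120 min of actinomycin D in KO (circles) and WT (triangles), n = 5 arrays per point apart from n = 4 for KO at 0 and 60 min, with 60 to 120 min shaded. Btg1, Foxo3, Xbp1 and Arf6 drop mainly in the shaded hour, Dusp1 and Sertad1 before it, Ier3 stays high in KO, and Dact1 falls in KO from a level it does not have in WT.

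Rises were few and small. The 35 genes that rose changed by 0.11 to 0.25 with a median of 0.19, and 8 of them also rose in WT. A rise after a block of transcription is measured relative to the other transcripts on the array, and need not be new RNA. The 8 with the largest change were Tsr2 (0.25 ± 0.061 SE, adjusted p = 0.019), Micos10 (0.24), Bbip1 (0.23), Dgcr6 (0.22), Bola2 (0.22), Fam13b (0.22), Pak2 (0.21) and Timm13 (0.21). Tsr2, a chaperone-like factor of ribosome assembly, had 9.32, 9.49, 9.38, 9.46 and 9.36 at 120 min, against 9.14, 9.23, 9.13 and 9.11 at 60 min, and Timm13, a carrier of mitochondrial protein import, had 10.44, 10.59, 10.55, 10.60 and 10.50, against 10.28, 10.36, 10.38 and 10.27. The groups of both lay apart, by less than the size of the change. None of the 35 passed in all fits that leave out 1 replicate, with adjusted p for the 8 of up to 0.136 without replicate 5 (Tsr2), 0.245 without replicate 3 (Micos10), 0.189 without replicate 1 (Bbip1), 0.16 without replicate 1 (Dgcr6), 0.234 without replicate 1 (Bola2), 0.184 without replicate 1 (Fam13b), 0.124 without replicate 5 (Pak2) and 0.191 without replicate 2 (Timm13). All 35 passed with the replicate as a block, under which 394 probe sets rose, against 78 without it.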

How the data were processed

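Log2 signals per probe set were deposited for 48 Affymetrix mouse genome arrays; the base was inferred from their range, and the sources used here do not give how the authors summarised, background-corrected and normalised them. Groups are from the sample titles (4 or 5 arrays each). The 64 control probe sets were left out and 45037 tested; the platform annotation gives 34945 of them 1 symbol, 932 several and 9160 no symbol. Each gene was represented by its brightest probe set, judged by the mean of the 48 arrays.

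A mean per genotype and time was fitted over all 48 arrays with limma 3.58.1 in R 4.3.3 (lmFit, eBayes with intensity trend and robust option), so that all groups share 1 estimate of the spread. Tests were two-sided at a Benjamini-Hochberg adjusted p of 0.05 over all probe sets; SE are from the fit and SD over arrays. Alternatives were a replicate block, a filter on dim probe sets, background subtraction, quantile normalization, a fit to the compared groups, no trend, leaving out each replicate, and experiments 1 to 3 or 4 to 5. Background subtraction took off the 5th percentile of each array and set linear signals under 16 to 16. Probe sets above 16 in at least 4 arrays were then kept. The number of arrays limits the precision. The fit was tested on simulated data with independent noise and no differences between experiments, so that test does not cover the experiment differences seen here.

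Experiments are named by the replicate number. Deviations from the group means of same-numbered KO arrays at 120 and 60 min correlated at 0.23, 0.71, 0.38 and 0.80 for replicates 1, 2, 3 and 5 and at -0.67 to 0.63 for different numbers, and per the labels' design text each number is 1 day, so the numbers pair the arrays. The main fit has no replicate term and does not use this pairing, so differences between experiments stay in its spread. The replicate block takes them out, and 766 probe sets fell with it, against 511.

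Named are the 24 lowest and 8 highest late changes past the threshold, the genes past the tests of the rate difference among the falls and of the genotype difference, the TTP family, Ier3, and up to 4 members per list with the lowest change; other list members past the threshold were named after their values were seen. Members and lists were chosen with earlier results of these data known. Names of 4 genes in the lists were updated. No sequence of the 3′ untranslated regions was used here.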

Additional observations from a re-analysis of the deposited data

Results flagged for a closer look

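Of 90 groups of 4 or 5 KO arrays of 45 named genes at 120 and 60 min, 3 held an array far from the others, and chance gives about 1 in 20. Junb was at 9.80 in KO at 60 min in replicate 5, against 10.26 to 10.30 in the other arrays. Id2 was at 10.75 in the same array, above the others at 10.36 to 10.39. Bola2 was at 9.66 in KO at 60 min in replicate 1, below the others at 9.90 to 9.94.

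The late change differed between KO and WT, by the test of the difference itself, in 4 genes. KO minus WT, the difference was -0.84 for Dact1, 0.76 for Irx3, -0.33 for Hic1 and -0.25 for Tec.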

How the results depend on the processing

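Each count below is over all probe sets. The 511 falls numbered 326 in experiments 1 to 3 alone and 350 to 396 without single replicates, against 766 with the replicate block, and lay within 1.5 times of 511 under the other alternatives. The 78 rises numbered 394 with the block, 175 among probe sets above the array median, 46 after quantile normalization, 149 without trend and robust option, 9 to 39 without single replicates, 7 in experiments 1 to 3 and 33 in experiments 4 and 5. The single probe set whose change was higher in KO than in WT became 20 with the block, 10 after background subtraction, 2 in a fit to the 4 groups compared and 0 to 1 without single replicates. The 5 lower in KO became 10 with the block, 2 after background subtraction, 9 in the fit to the 4 groups, 1 to 5 without single replicates, 1 in experiments 1 to 3 and 18 in experiments 4 and 5. The 197 with a slower late rate became 316 with the block, 110 to 208 without single replicates, 118 in experiments 1 to 3 and 122 in experiments 4 and 5, and the 15 with a faster one 48, 6 to 12, 6 and 8. The fits that leave out arrays rest on fewer samples, and in experiments 4 and 5 KO at 60 min is 1 array, assumed to vary like the other groups; the cause of the other shifts was not tested. Of 89 genes followed under every alternative, none changed sign in a called result. The replicate block changed 1 of their late calls, that of Zfp36l1 (-0.26, adjusted p = 0.008). Outside the 89 it added many calls, Myc and Ccn2 among them, and 766 probe sets fell with it, against 511. Late calls were lost for 14 of the 89 after background subtraction, 11 in the fit to the compared groups, 3 after quantile normalization, 26 in experiments 1 to 3 and 30 in experiments 4 and 5. Signals near the floor of about 8 limit the late change of dim transcripts, and no detection calls were used here.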

Other observations

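The 40 genes that fell in KO between 60 and 120 min without a call in WT included several regulators at low level, of which those named here were chosen after their values were seen. The forkhead factor Foxc2 averaged 8.92 at 120 min, against 9.50 at 60 min in KO, a change of -0.57 (limma, adjusted p = 0.0413), and changed by -0.20 in WT. The kinase Dyrk3 changed by -0.40 in KO and by -0.11 in WT, the Cdk5 activator Cdk5r1 by -0.37 and -0.10, and the phosphatase Dusp7 by -0.37 and -0.20. None of these 4 differed between KO and WT by the test of the difference. The 40 genes had a median signal of 8.90 in KO and 8.63 in WT at 60 min, against 9.48 and 9.37 for the 272 genes called in both. Of the 511 probe sets that fell, 30 carry no gene symbol in the annotation used and were not followed further.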
